A study of Mus musculus with 4 samples.

Results

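The Rab GTPases and the sorting, tethering and fusion proteins that work with them move membrane between compartments of the cell. The genes described here are those whose symbols begin with the names of Rab proteins and their partners, TBC-domain proteins, VPS proteins, sorting nexins, syntaxins and other SNAREs, exocyst and ESCRT subunits, clathrin, its adaptors, EHD proteins, dynamins and epsins. They number 132 of the 4878 genes in the deposited table. They were compared between mouse embryonic fibroblasts (MEFs), passages 5-8, transfected with siRNA against eIF1A, Si-eIF1A (X+18), in 2 libraries, and the same cells transfected with a negative control siRNA, in 2 libraries. eIF1A takes part in translation initiation, where it promotes scanning of the mRNA leader for a start codon, and the series asks which mRNA levels differ when it is knocked down. Bulk MARS-seq, which sequences the 3′ ends of polyadenylated RNA, was used for all 4 libraries, and both groups share the transfection with Lipofectamine RNAimax. No label says that the libraries were grown apart, and a p-value here reflects only how these 4 libraries vary, which may be technical.

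A Rab GTPase switches between a GDP-bound and a GTP-bound form. Exchange factors load it with GTP, the active form recruits tethers and motors to one kind of membrane, and TBC-domain proteins stimulate its hydrolysis of GTP. Clathrin adaptors, sorting nexins and the retromer, GARP and ESCRT complexes choose cargo at the plasma membrane, the trans-Golgi network and endosomes. Tethers such as HOPS, CORVET and the exocyst hold a vesicle at its target, where SNARE proteins on both membranes zip together and fuse them. Fibroblasts use this traffic to take up receptors and integrins and to deliver matrix.

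Recovered reads over the genes of the table came to 2152331 and 2352111 in knockdown libraries 1 and 2 and to 2182825 and 2595625 in control libraries 1 and 2. Members held 2.27% and 2.34% of these reads in knockdown libraries and 2.29% and 2.34% in control libraries. The median member had 152 and 191 reads in knockdown libraries and 131 and 159 in control libraries. Eif1a and Eif1ax were not analysed here, so the depth of the knockdown was not checked. Of 14 fibroblast markers 4 were in the table (Vim, Fn1, Sparc and S100a4), and their summed normalised counts were 14385 and 15980.4 in knockdown libraries and 28574 and 25807 in control libraries. They differed among themselves: S100a4 was 6.64-fold lower (adjusted p = 3.74e-08, limma), Vim 1.88-fold lower (0.0105) and Sparc 1.73-fold lower (0.0193), while Fn1 had 1338 and 1957 in knockdown libraries, against 2194 and 1328 in control libraries, overlapped and did not pass (0.845). Among markers of epithelial, endothelial, leukocyte, muscle and neural cells, Map2 was the only one in the table, at 5.65 and 10.9 in knockdown libraries and 18.7 and 16.2 in control libraries. The part of these marker levels in the results was not tested, and fewer cells of a type and less RNA per cell cannot be told apart in bulk libraries.

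Of the 132 genes, 126 had a mean normalised count of at least 5 and were tested. In knockdown libraries 9 were higher and 24 were lower (limma with Benjamini-Hochberg adjustment over 4605 genes, adjusted p under 0.05), which is 7.14% and 19.0% of those tested. Over all tested genes 15.9% were higher and 21.6% were lower, and 37.5% were called in either direction. At the deposited scaling the members' share lowered was near that of the whole table and their share raised was below it. The median log2 fold change was −0.031 for the tested members and −0.0091 for all tested genes, and the median size of change, in either direction, was 0.39 and 0.59. Groups did not overlap in 79 of the 126, against 67.8% of all tested genes. All fold changes are knockdown over control on the log2(normalised count + 1) scale. How calls split by direction varied with scaling. At equal library totals, which moved the median of all genes to 0.34, 26 members were higher and 10 lower. That is 20.6% and 7.94%, against 28.2% and 13.1% of all genes (41.3% in either direction), so both shares were below the table's. Under quantile normalisation 11 were higher and 14 lower (8.73% and 11.1%), against 17.5% and 17.5% of all genes (35% in either direction). At equal totals all 9 genes called higher with the deposited scaling were still called higher, and 10 of the 24 were still called lower: Dnm1, Ehd2, Epn1, Rab1b, Rab3il1, Snap47, Tbc1d17, Vps16, Vps51 and Vps72.

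**Figure D1:**
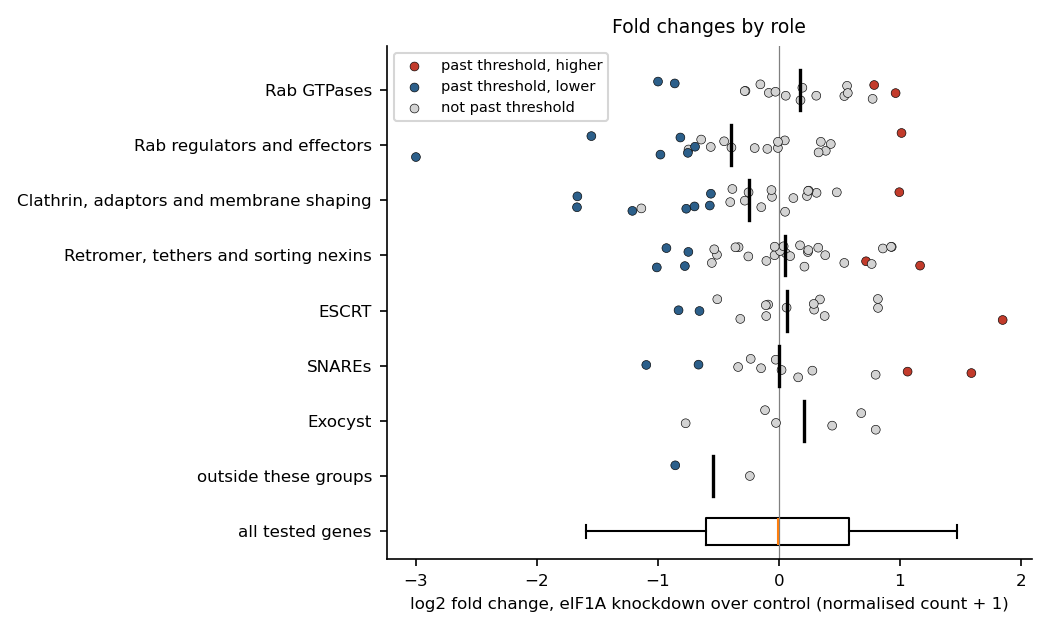
Log2 fold change of each tested member (points, knockdown over control, normalised count + 1) by role, with the median of each role as a black line and all tested genes as a box (quartiles, median, whiskers at the 5th and 95th percentiles). Rab3il1 lies farthest to the left at −3.00 and Vps36 farthest to the right at 1.85, and the medians of the roles with more than 2 members run from −0.39 to 0.21.

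Promoters were examined for a motif tied to this machinery. TFEB and its relatives, which switch on lysosomal and endosomal genes, bind the palindrome TCACGTGA, the core of the CLEAR element. In the 250 bases before the start site, RefSeq promoters (GRCm38.p6) of 104 tested members, 133 promoters in all, held it in 6 cases or 4.51%, against 0.785% of all 32851 promoters of the RefSeq set, which belong to 27025 genes, expressed here or not. Among members past the threshold it stood before 2 genes that were higher, Rab21 and Vps26a, and 2 that were lower, Tbc1d13 and Vps16, so members with the same letters went both ways. The matches are shown here with the palindrome in capitals and up to 16 bases of each side, on the strand of the gene. The windows are chr10:115315599-115315638 (minus strand) for Rab21, chr10:62486965-62487004 and chr10:62486727-62486766 (minus strand) for 2 start sites of Vps26a, chr2:30133696-30133735 (plus strand) for Tbc1d13 and chr2:130424285-130424319 (plus strand) for Vps16.
Rab21, higher: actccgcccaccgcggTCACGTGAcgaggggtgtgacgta
Vps26a, first window, higher: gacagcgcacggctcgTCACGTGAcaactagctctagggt
Vps26a, second window, higher: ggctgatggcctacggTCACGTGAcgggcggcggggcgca
Tbc1d13, lower: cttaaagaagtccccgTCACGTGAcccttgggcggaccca
Vps16, lower: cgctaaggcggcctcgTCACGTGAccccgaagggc
The palindrome lies 31 bases before the start site in Rab21, 183 and 152 bases in Vps26a, 34 bases in Tbc1d13 and 19 bases in Vps16. It contains the E-box CACGTG, which was found in 14.3% of the members' promoters and 6.02% of all. The ATF4 element TGATGNAA, searched on both strands, was in 3.01% of the members' promoters and 3.45% of all, and the sterol element TCACNCCAC was in 0 of 133 promoters, against 1.05% of all. A match is a string of letters and was not tested as a binding site.

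Rab GTPases themselves changed in both directions. Of the 18 measured, 17 were tested, 2 rose and 2 fell (11.8% each, against 15.9% and 21.6% of all tested genes). The median was 0.18. Rab7, which directs late endosomes to lysosomes, had normalised counts of 643 and 705 in knockdown libraries, against 258 and 459 in control libraries. Both knockdown libraries lay above both controls, but the controls were far apart, and the rise was 1.95-fold (log2 0.97, SE 0.25, adjusted p = 0.00506, limma). Rab21, which acts on early endosomes that carry integrins, had 138 and 234 in knockdown libraries, against 90.5 and 118 in control libraries. Its rise of 1.73-fold (adjusted p = 0.0353, limma) came with knockdown library 2 well above knockdown library 1. Rab1b, which acts between the endoplasmic reticulum and the Golgi, had 1390.1 and 1449 in knockdown libraries, against 2476 and 2684 in control libraries. The libraries of each group lay close together, and Rab1b fell 1.82-fold (log2 −0.86, SE 0.21, adjusted p = 0.00329, limma). Rab5b, a Rab of early endosomes, had 61.3 and 51.6 in knockdown libraries, against 114 and 113 in control libraries, which is 2.00-fold lower (adjusted p = 0.00964, limma). Its relative Rab5c did not pass, with 1389 and 1307 in knockdown libraries, against 1259.8 and 1781 in control libraries and overlapping groups, and whether the pair differ was not tested.

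Next in order of p came Rab31, a Rab of the trans-Golgi network, with 232 and 236 in knockdown libraries, against 173 and 144 in control libraries (log2 0.56, adjusted p = 0.0691, limma), Rab23, known for its part in hedgehog signalling (0.78, 0.191), and Rab10, which acts in exocytosis (0.54, 0.193). The other 10 (Rab2a, Rab5c, Rab8a, Rab9, Rab11a, Rab12, Rab14, Rab24, Rab34 and Rab35) had log2 fold changes from −0.28 to 0.57. Rab11b was under the filter, with 3 and 1 reads in knockdown and 12 and 1 in control libraries. Without control library 1 the call of Rab7 was lost (log2 0.55, adjusted p = 0.0861) and so was that of Rab21 (0.60, 0.116), and without knockdown library 2 those of Rab21 (0.41, 0.473) and Rab5b (−0.88, 0.0868) were lost. Rab7 has an annotated pseudogene that can share its reads.

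**Figure D2:**
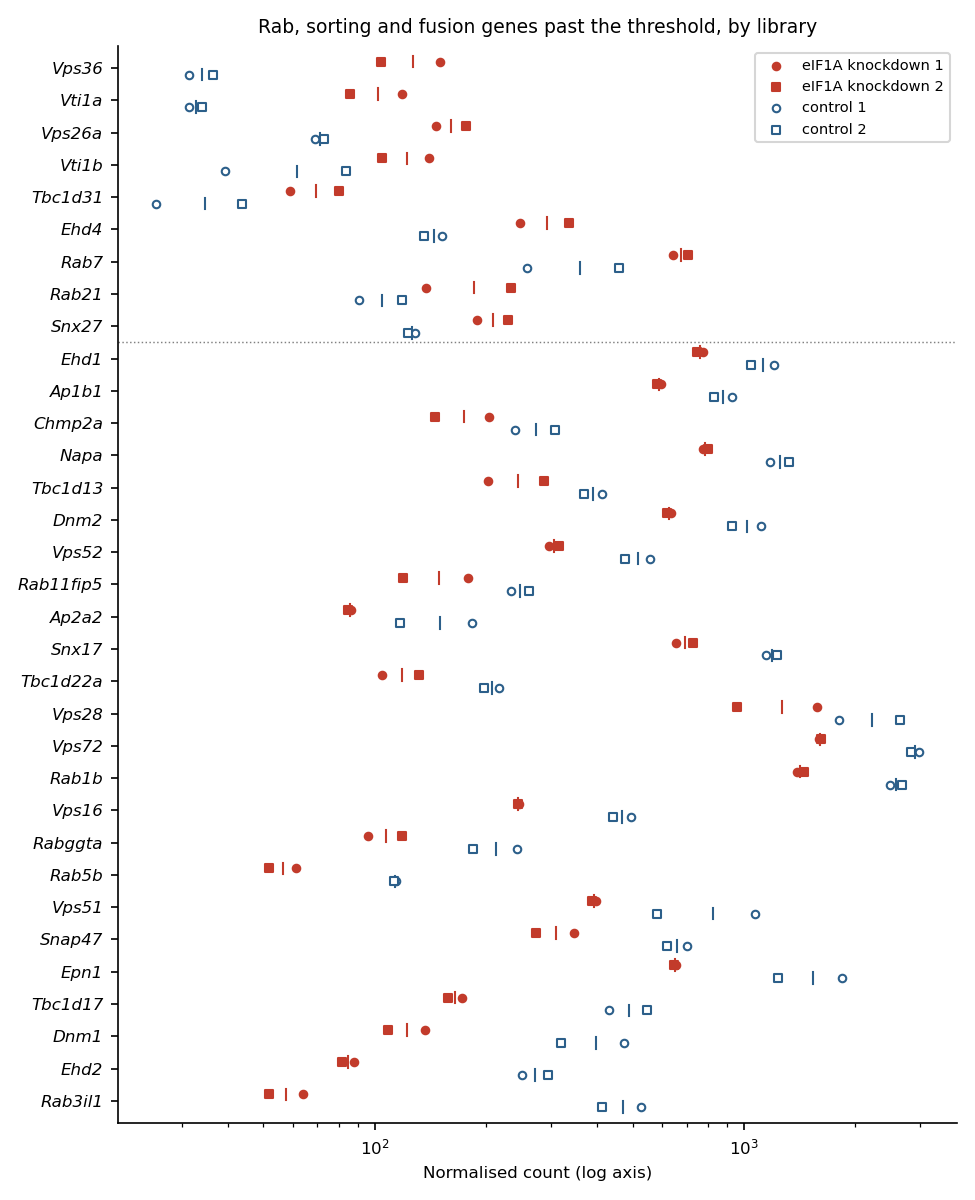
Normalised counts (log axis) of the 33 members past the threshold, with filled red marks for the 2 eIF1A knockdown libraries, open blue marks for the 2 control libraries and short lines for group means; genes above the dotted line were higher in knockdown and genes below it lower. In all 33 the knockdown libraries lie on one side of both controls, which choice by adjusted p makes likely. Over all tested genes 67.8% do the same. The gap is widest in Rab3il1, at 63.8 and 51.6 in knockdown and 527 and 413 in control libraries.

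Regulators of Rabs held the largest change of any tested member, in Rab3il1. Of 22 genes 21 were tested, 1 rose and 6 fell (4.76% and 28.6%, against 15.9% and 21.6% of all tested genes). The median was −0.39, and it was −0.041 at equal library totals and −0.060 with the transcript GC trend removed. For all tested genes these medians were −0.0091, 0.34 and 0.014. Rab3il1 (mm10 chromosome 19, 10001669 to 10038380, plus strand), an exchange factor known to act on Rab3A and Rab8, had 63.8 and 51.6 in knockdown libraries, against 527 and 413 in control libraries. Both knockdown libraries were far below both controls, an 8.01-fold fall (log2 −3.00, SE 0.25, adjusted p = 4.82e-08, limma). Rab3ip, the related exchange factor also called Rabin8, had 44.4 and 42.8 in knockdown libraries, against 36.4 and 30.0 in control libraries and did not pass (log2 0.39, adjusted p = 0.423, limma). Tbc1d17 (chromosome 7, 44834623 to 44849079, minus strand), a TBC-domain protein that stimulates GTP hydrolysis by Rabs, had 172 and 158 in knockdown libraries, against 432 and 545 in control libraries, 2.93-fold lower (adjusted p = 3.39e-05, limma). Rabggta, the alpha subunit of the enzyme that puts lipid anchors on Rabs, had 96.1 and 119 in knockdown libraries, against 243 and 184 in control libraries and fell 1.97-fold (adjusted p = 0.00553, limma), whereas the beta subunit gene Rabggtb had 21.8 and 31.9 in knockdown libraries, against 21.7 and 19.5 in control libraries and did not pass (log2 0.35, adjusted p = 0.566). The difference between the subunits was not tested.

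Smaller falls were seen in Tbc1d22a, a TBC-domain protein, with 105 and 132 in knockdown libraries, against 218 and 198 in control libraries (1.76-fold, adjusted p = 0.0148, limma), and in Rab11fip5, an effector of Rab11 on recycling endosomes, with 179 and 119.6 in knockdown libraries, against 233 and 262 in control libraries (1.68-fold, 0.0254). Tbc1d13, which acts on Rab35, had 203 and 287 in knockdown libraries, against 412 and 369 in control libraries (1.62-fold lower, adjusted p = 0.0260, limma). The regulator that rose was Tbc1d31, a TBC-domain protein found at centriolar satellites, with 58.9 and 80.2 in knockdown libraries, against 25.6 and 43.8 in control libraries (2.02-fold, adjusted p = 0.0315, limma). The next in order of p were Tbc1d10a (log2 −0.64, adjusted p = 0.0515), Rabep2, a rabaptin that binds Rab5 (−0.56, 0.0749), and Tbc1d10b (−0.45, 0.124). The other 11, among them the early endosome tether Eea1, ran from −0.75 to 0.43, and Tbc1d4, at 1 and 4 reads in knockdown and 1 and 2 in control libraries, was under the filter. Calls were lost without knockdown library 1 for Rabggta (adjusted p = 0.0580), Tbc1d22a (0.149) and Tbc1d13 (0.303), without knockdown library 2 for Rab11fip5 (0.334) and Tbc1d31 (0.250), without control library 1 for Tbc1d13 (0.0672) and Tbc1d31 (0.199), and without control library 2 for Rab11fip5 (0.0575). With the GC trend of the last 500 bases removed Tbc1d13 was at log2 −0.064 (adjusted p = 0.869). In DESeq2 the calls of Rab11fip5 (adjusted p = 0.0770), Tbc1d13 (0.0642) and Tbc1d31 (0.0619) were lost. Under quantile normalisation the same calls were lost (adjusted p = 0.0640, 0.135 and 0.0721, limma).

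Among genes of clathrin coats and endocytic membrane shaping, 7 of 23 fell and 1 rose (30.4% and 4.35%, against 21.6% and 15.9% of all tested genes). Their median was −0.25 and became 0.10 at equal library totals, against −0.0091 and 0.34 for all tested genes. Ehd2 (chromosome 7, 15946958 to 15967567, minus strand), an ATPase that holds caveolae at the cell surface, had 88.0 and 81.5 in knockdown libraries, against 251 and 294 in control libraries. It fell 3.18-fold (log2 −1.67, SE 0.25, adjusted p = 3.63e-05, limma), with the 2 knockdown libraries close together. Its relative Ehd4, which acts on early endosomes, went the other way, with 248 and 336 in knockdown libraries, against 153 and 136 in control libraries, and rose 1.99-fold (log2 1.00, SE 0.24, adjusted p = 0.00328, limma). Ehd1, which acts in recycling from endosomes, had 773 and 747 in knockdown libraries, against 1206 and 1045 in control libraries and was 1.48-fold lower (adjusted p = 0.0405, limma). With the trend on GC content removed its direction turned (log2 0.044 by transcript and 0.14 by the last 500 bases, neither past the threshold). The call of Ehd1 was also lost with TMM scaling (adjusted p = 0.0654, limma) and quantile normalisation (0.544), and in edgeR (0.0689) and DESeq2 (0.0736).

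Dynamins cut vesicles from the membrane, and both that were measured fell at the deposited scaling. Dnm1 (chromosome 2, 32308471 to 32353338, minus strand), the isoform best known from neurons, had 136 and 109 in knockdown libraries, against 473 and 319 in control libraries, a 3.17-fold fall (adjusted p = 4.67e-05, limma). Dnm2, the isoform of most cells, had 635 and 617 in knockdown libraries, against 1110.2 and 930.1 in control libraries, a 1.62-fold fall (adjusted p = 0.0134, limma). With the GC trend removed Dnm2 lost its call and was at log2 −0.21 (adjusted p = 0.415) by transcript and −0.11 (0.716) by the last 500 bases. The call was also lost at equal library totals (adjusted p = 0.199, limma) and under quantile normalisation (0.197). An exon of Tmed1 lies on the opposite strand within the last 1000 bases of Dnm2, and Tmed1 did not pass (log2 −0.0090, adjusted p = 0.984). Epn1, an epsin that helps bend the membrane under clathrin, had 654 and 645 in knockdown libraries, against 1837 and 1232 in control libraries. The controls were far apart but both stood above the knockdowns (2.32-fold lower, log2 −1.21, SE 0.23, adjusted p = 0.000348, limma). Epn3 had 11.3 and 8.83 in knockdown libraries, against 27.6 and 19.5 in control libraries and missed the threshold (adjusted p = 0.0816), and Epn2 had 109.8 and 122 in knockdown libraries, against 74.8 and 91.7 in control libraries (adjusted p = 0.182).

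The coat itself and most adaptor subunits did not pass. Clta, the light chain of clathrin, had 2174 and 2129 in knockdown libraries, against 2389 and 2742 in control libraries (log2 −0.25, adjusted p = 0.387, limma) and Cltc, the heavy chain, had 37.1 and 37.4 in knockdown libraries, against 52.2 and 18.7 in control libraries (0.24, 0.701). Of 4 subunits of AP-1, the adaptor of the trans-Golgi network, Ap1b1 fell, with 597 and 583 in knockdown libraries, against 928 and 829 in control libraries (1.49-fold, adjusted p = 0.0374, limma). The call of Ap1b1 was lost with TMM scaling (adjusted p = 0.0600, limma) and quantile normalisation (0.398), and in edgeR (0.0626) and DESeq2 (0.0718). Of 5 subunits of AP-2, the adaptor of the plasma membrane, Ap2a2 fell, with 86.4 and 84.9 in knockdown libraries, against 183 and 117 in control libraries (1.70-fold, adjusted p = 0.0379, limma). Ap2a2 lost its call with TMM scaling (adjusted p = 0.0548, limma) and in DESeq2 (0.0734). Ap2s1, next in order of p, had a log2 fold change of −0.40 (adjusted p = 0.178). The 12 other genes of this role, clathrin chains and AP-3 subunits included, ran from −0.38 to 0.31. The calls of Ap1b1 and Ehd1 were lost without knockdown libraries 1 (adjusted p = 0.121 and 0.117) and 2 (0.164 and 0.174) and without control library 1 (0.133 and 0.167), as was that of Ap2a2 (0.104, 0.124 and 0.320), and all 3 were lost with the replicate number as a block (0.0579, 0.0615 and 0.0529). Dnm2 lost its call without knockdown library 2 (0.0745) and control library 1 (0.0753), and Ehd4 without knockdown library 2 (0.0842).

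Genes that sort cargo at endosomes changed in both directions. Of 32 retromer, tethering and sorting nexin genes, 30 were tested, 2 rose and 4 fell (6.67% and 13.3%, against 15.9% and 21.6% of all tested genes). The median was 0.049, or −0.00081 with the transcript GC trend removed, against −0.0091 and 0.014 for all tested genes. Vps26a (chromosome 10, 62455235 to 62486805, minus strand), a subunit of the retromer that carries receptors from endosomes back to the Golgi or the surface, had 146 and 177 in knockdown libraries, against 68.9 and 73.0 in control libraries. It rose 2.25-fold (log2 1.17, SE 0.27, adjusted p = 0.00196, limma), with each group close together. Vps29, another retromer subunit, had 86.4 and 57.7 in knockdown libraries, against 24.6 and 54.4 in control libraries. Knockdown libraries lay above controls, but control library 2 was close to knockdown library 2, and the gene missed the threshold (log2 0.93, adjusted p = 0.0616). Snx27, which links cargo tails to the retromer, had 189 and 230.3 in knockdown libraries, against 129 and 123 in control libraries and rose 1.65-fold (adjusted p = 0.0266, limma). Vps35 was not analysed here, and Vps26b was under the filter, with 4 and 4 reads in knockdown and 3 and 6 in control libraries. Other partners of the retromer did not pass, among them Snx1 (log2 0.17), Snx2 (0.058), Snx3 (−0.33) and Snx6 (−0.53).

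Among tested tether subunits, 2 of 3 in GARP, 1 of 7 in HOPS and CORVET and 0 of 6 in the exocyst fell. Over all tested genes 21.6% fell. Vps51 and Vps52 belong to GARP, which receives endosomal vesicles at the Golgi. Vps52 had 297 and 315 in knockdown libraries, against 555 and 477 in control libraries (1.68-fold lower, adjusted p = 0.0105, limma), whereas Vps53 of the same complex had 392 and 421 in knockdown libraries, against 379.9 and 309 in control libraries and did not pass (log2 0.24, adjusted p = 0.414). The call of Vps52 was lost at equal library totals (adjusted p = 0.161, limma) and under quantile normalisation (0.0853). It was also lost with the GC trend of the transcript (0.156) or of the last 500 bases (0.208) removed. Vps51 had 397 and 387 in knockdown libraries, against 1069.8 and 583 in control libraries (2.01-fold lower, adjusted p = 0.00387, limma). An exon of Tm7sf2, a sterol synthesis gene on the same strand, lies within the last 1000 bases of Vps51, and Tm7sf2 had 114 and 55.7 in knockdown libraries, against 767 and 665 in control libraries, so the reads of Vps51 are uncertain to that extent. Vps16 (chromosome 2, 130424339 to 130444269, plus strand), a core subunit of the HOPS and CORVET tethers of endosomes, had 245 and 245 in knockdown libraries, against 495 and 442 in control libraries. Its knockdown libraries were nearly equal and its fall was 1.90-fold (log2 −0.93, SE 0.22, adjusted p = 0.00245, limma). The other 6 HOPS and CORVET subunits did not pass, and the nearest was Vps18 (log2 −0.55, adjusted p = 0.0645). Vps11, another core subunit, had 356 and 395 in knockdown libraries, against 389 and 356 in control libraries, a log2 fold change of 0.010.

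Snx17, a sorting nexin that returns integrins and LRP1 to the surface, had 656 and 729 in knockdown libraries, against 1149 and 1225 in control libraries (1.71-fold lower, adjusted p = 0.00619, limma). An exon of Zfp513 lies on the opposite strand within its last 1000 bases, and Zfp513 did not pass (log2 0.20, adjusted p = 0.522). The call of Snx17 was lost at equal library totals (adjusted p = 0.106, limma) and under quantile normalisation (0.178). It was also lost with the GC trend of the transcript (0.0827) or of the last 500 bases (0.162) removed. Snx7 missed the threshold (log2 0.77, adjusted p = 0.0674). The 21 others, Vps53 and Vps11 included, ran from −0.53 to 0.93, and Snx16 was under the filter, with 6 and 10 reads in knockdown and 1 and 3 in control libraries. Calls were lost without knockdown library 1 for Snx17 (adjusted p = 0.0542), Vps52 (0.0681) and Snx27 (0.0526), without knockdown library 2 for Snx27 (0.247), and without control library 1 for Vps51 (0.0753).

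**Figure D3:**
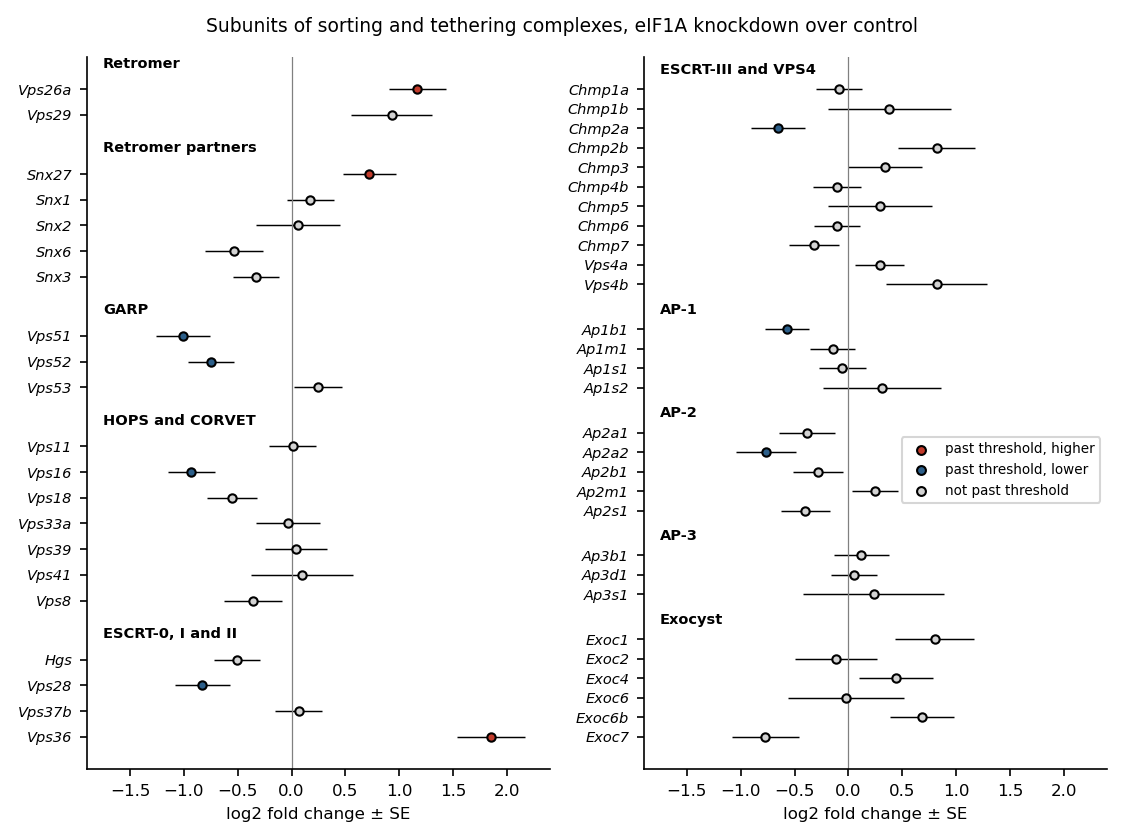
Log2 fold change (knockdown over control, normalised count + 1) with its standard error for tested subunits of 10 groups of complexes, coloured by whether and in which direction they passed the threshold. In GARP, Vps51 stands at −1.01 and Vps53 at 0.24, on either side of 0, whereas both retromer subunits lie above 0. The 3 AP-3 subunits lie close to 0, from 0.052 to 0.23, with overlapping groups, and did not pass.

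ESCRT complexes bend membrane away from the cytosol and take ubiquitinated receptors into the endosome. Of 16 ESCRT genes 15 were tested, 1 rose and 2 fell (6.67% and 13.3%, against 15.9% and 21.6% of all tested genes). The median was 0.064. Vps36 (chromosome 8, 22192809 to 22220843, plus strand), the ubiquitin-binding subunit of ESCRT-II, had 150.1 and 104 in knockdown libraries, against 31.5 and 36.5 in control libraries. Both knockdown libraries stood well above both controls, and the rise of 3.61-fold (log2 1.85, SE 0.31, adjusted p = 0.000139, limma) was the largest among the members. Vps28 of ESCRT-I had 1573 and 959 in knockdown libraries, against 1807 and 2638 in control libraries, a fall of 1.78-fold (adjusted p = 0.0147, limma) with wide spread in each group. The call of Vps28 was lost at equal library totals (adjusted p = 0.0743, limma) and under quantile normalisation (0.167). It was also lost with the GC trend of the transcript (0.152) or of the last 500 bases (0.256) removed. Chmp2a of ESCRT-III, the filament that closes the neck, had 203 and 145 in knockdown libraries, against 239 and 308 in control libraries (1.58-fold lower, adjusted p = 0.0446, limma), while its relative Chmp2b had 88.8 and 104 in knockdown libraries, against 34.4 and 84.4 in control libraries and did not pass (log2 0.82, adjusted p = 0.0782). The call of Chmp2a was lost with TMM scaling (adjusted p = 0.0755, limma) and quantile normalisation (0.130), and in edgeR (0.0665) and DESeq2 (0.117). Hgs, the ESCRT-0 subunit that first binds cargo, had a log2 fold change of −0.51 (adjusted p = 0.0705), and Vps4b, an ATPase that takes the filament apart, one of 0.82 (0.184). The other 9 ran from −0.32 to 0.38, and Vps37a, at 1 and 13 reads in knockdown and 1 and 5 in control libraries, was under the filter. Vps28 and Chmp2a lost their calls without knockdown library 2 (adjusted p = 0.241 and 0.388) and without control library 2 (0.0848 and 0.188), and Chmp2a also with the replicate number as a block (0.0644).

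SNAREs, counted here together with Napa, gave 2 rises and 2 falls among 12 tested genes (16.7% each, against 15.9% and 21.6% of all tested genes). Their median was −0.0017, which became 0.34 at equal library totals, against −0.0091 and 0.34 for all tested genes. Both VTI1 genes rose. Vti1a (chromosome 19, 55316295 to 55627309, plus strand), a SNARE of the trans-Golgi network, had 119 and 85.6 in knockdown libraries, against 31.5 and 34.1 in control libraries. Its knockdown libraries were well above the controls (3.01-fold, log2 1.59, SE 0.32, adjusted p = 0.000677, limma). Vti1b, which serves fusion of late endosomes, had 140.5 and 105 in knockdown libraries, against 39.4 and 83.6 in control libraries, with control library 2 nearer to the knockdowns (2.09-fold, adjusted p = 0.0175, limma). Stx7, a syntaxin that pairs with Vti1b, had 60.5 and 68.6 in knockdown libraries, against 30.5 and 43.8 in control libraries and missed the threshold (log2 0.80, adjusted p = 0.0695). Snap47 (chromosome 11, 59407134 to 59451186, minus strand), a relative of SNAP-25, had 345 and 273 in knockdown libraries, against 699 and 619 in control libraries and fell 2.14-fold (adjusted p = 0.000677, limma). Napa, which encodes alpha-SNAP and with NSF takes spent SNARE complexes apart, had 773 and 798 in knockdown libraries, against 1172 and 1324 in control libraries (1.58-fold lower, adjusted p = 0.0168, limma). The call of Napa was lost at equal library totals (adjusted p = 0.243, limma), under quantile normalisation (0.359) and with the transcript GC trend removed (0.195). Stx5a of the Golgi (log2 −0.34, adjusted p = 0.215) and Stx4a of the plasma membrane (0.28, 0.366) came next, and Snap23, Snap29, Stx2, Stx12 and Vamp8 ran from −0.23 to 0.16. Vti1b lost its call without knockdown library 1 (adjusted p = 0.121) and control library 1 (0.208), and Napa without knockdown libraries 1 (0.0817) and 2 (0.0670) and control library 2 (0.0639). An exon of Arg2, which was not analysed here, lies on the opposite strand within the last 1000 bases of Vti1b.

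The exocyst tethers secretory vesicles at the plasma membrane. Of its 6 tested subunits 0 passed the threshold in limma, against 37.5% of all tested genes. In edgeR and DESeq2 it was also 0, against 37.3% and 31.4%. An unadjusted p under 0.05 in limma was found for 3 subunits, and for 2110 of all 4605 tested genes. Other settings gave calls. At equal library totals 3 subunits were higher, against 28.2% of all genes. With the GC trend of the last 500 bases removed 1 was higher, against 15.7%, and under quantile normalisation 1 was lower, against 17.5%. The crossed replicate block called 1 higher and 1 lower, against 19.3% and 25.1% of all genes. Exoc7 had 60.5 and 42.8 in knockdown libraries, against 94.5 and 81.2 in control libraries (log2 −0.77, adjusted p = 0.0569, limma). Exoc6b had 102 and 142 in knockdown libraries, against 92.5 and 60.1 in control libraries (0.68, 0.0794) and Exoc1 had 45.2 and 48.2 in knockdown libraries, against 29.5 and 23.5 in control libraries (0.80, 0.0936). These 3 of 6 had groups that did not overlap, against 67.8% of all tested genes, while Exoc2, Exoc4 and Exoc6 ran from −0.11 to 0.44. Exoc3 was under the filter, with 7 and 2 reads in knockdown and 5 and 4 in control libraries. The pattern of symbols also took 2 genes of other function. Vps72, a subunit of chromatin complexes that deposit the histone variant H2A.Z, had 1591 and 1615 in knockdown libraries, against 2973 and 2836 in control libraries (1.81-fold lower, adjusted p = 0.00349, limma), and Hgsnat, a lysosomal acetyltransferase, had a log2 fold change of −0.24 (adjusted p = 0.515).

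Other genes of the same pathways, whose symbols fall outside the pattern, were taken from a list of 155. Of these 78 were in the table and 75 were tested, 6 rose and 21 fell, which is 8% and 28% of those tested, against 15.9% and 21.6% of all tested genes. Their median was −0.26, or 0.096 at equal library totals, against −0.0091 and 0.34 for all tested genes. Among the falls of smallest p were Dennd3, an exchange factor for Rab12 (6.05-fold, adjusted p = 0.000177, limma), Hip1r, which links clathrin to actin (2.58-fold, 0.000371), and Flot1, a flotillin (2.18-fold, 0.00058). Flot1 lost its call with the GC trend removed (1.42-fold, adjusted p = 0.109, by transcript and 1.49-fold, 0.0551, by the last 500 bases). Dennd3 had 7.27 and 7.47 in knockdown libraries, against 54.1 and 45.4 in control libraries. The rises of smallest p were Ykt6, a SNARE, with 749.9 and 796 in knockdown libraries, against 466 and 416 in control libraries (1.75-fold, adjusted p = 0.00507, limma), Itsn2, an endocytic scaffold (3.96-fold, 0.0132), Vac14, which holds the lipid kinase PIKfyve (1.66-fold, 0.0175), Ubap1 of ESCRT-I (1.59-fold, 0.0330) and Trappc11, a TRAPP subunit (1.8-fold, 0.0334). Of the 5 rises, Ykt6 kept its call without each library in turn, and the other 4 lost theirs without knockdown library 2 (adjusted p = 0.203 for Itsn2, 0.127 for Vac14, 0.270 for Ubap1 and 0.202 for Trappc11). Ubap1 and Trappc11 also lost theirs without knockdown library 1 (0.0622 and 0.0589), Ubap1 without control library 1 (0.0890) and with the replicate number as a block (0.0504), and Vac14 and Trappc11 without control library 2 (0.154 and 0.236). The rise of Itsn2 was 6.03-fold without control library 1 and 2.60-fold without control library 2. Itsn2 had 17.8 and 34.0 in knockdown libraries, against 8.86 and 3.25 in control libraries, which rest on only 9 and 4 reads.

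Members that fell had transcripts richer in G and C than those that rose. The median GC content of the longest transcript was 47.5% for the 9 higher members, 55.3% for the 24 lower members and 50.3% for the 93 that did not pass. Over all tested genes these medians were 48.8%, 55.9% and 50.2%. The range was 42.7% to 51.4% in higher and 49.1% to 62.5% in lower members. Across the 126 tested members the log2 fold change and GC content had a Spearman's rho of −0.63 and a Pearson's r of −0.54, against −0.45 and −0.42 across 4600 tested genes. Genes are not independent replicates, all points come from the same 4 libraries, and the part of GC content in the calls was not tested. With the trend on transcript GC content removed, 5 members were higher and 9 lower (3.97% and 7.14%), against 14.6% and 14.0% of all genes (28.5% in either direction). In this setting 10 of the 33 calls were kept, those of Dnm1, Ehd2, Ehd4, Rab3il1, Rab5b, Snap47, Tbc1d17, Vps16, Vps36 and Vti1a. Among calls lost in this setting were Vps26a (log2 0.68, adjusted p = 0.0509), Rab7 (0.71, 0.0714), Epn1 (−0.37, 0.186), Rab1b (−0.24, 0.397), Vps51 (−0.27, 0.429), Rab11fip5 (−0.15, 0.678) and Vps72 (−0.38, 0.148). With the trend of the last 500 bases removed Epn1 was at −0.51 (0.0731) and Vps51 at −0.25 (0.461).

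**Figure D4:**
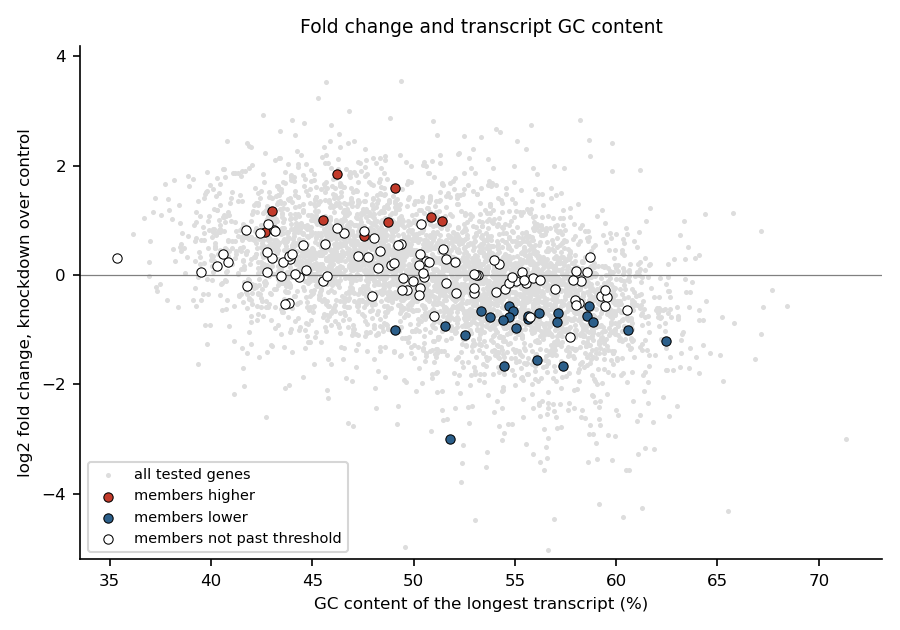
Log2 fold change (knockdown over control, normalised count + 1) against GC content of the longest transcript for tested members (large circles) and all tested genes (grey). Higher members (red, median 47.5%) lie to the left of lower members (blue, median 55.3%), and grey points slope the same way.

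The calls that held under all 18 other settings were those of Dnm1, Ehd2, Rab3il1, Snap47, Tbc1d17 and Vps16, which were lower, and of Vps36 and Vti1a, which were higher. Leaving out each library in turn was survived by these 8 and by Epn1, Rab1b, Vps26a and Vps72. Vps26a lost its call with the GC trend of the transcript removed, Epn1 with either GC trend removed, and Rab1b and Vps72 did so there and under quantile normalisation (adjusted p = 0.0554 and 0.0634). Of the named members that missed the threshold, 10 passed when 1 library was left out. Without control library 2 these were Chmp2b (adjusted p = 0.000465, limma), Vps29 (0.00125), Snx7 (0.00212), Tbc1d10b (0.0238), Hgs (0.0248), Stx7 (0.0267) and Vps18 (0.0375). Without control library 1 they were Exoc6b (0.0143) and Rab31 (0.0435), without knockdown library 1 Rab10 (0.0368), and without knockdown library 2 Vps29 again (0.0406). Run on reads, edgeR's test (quasi-likelihood) called 10 members higher and 21 lower (7.94% and 16.7%), against 17.5% and 19.7% of all genes (37.3% in either direction). DESeq2 called 8 and 18 (6.35% and 14.3%), against 13.5% and 18.0% (31.4% in either direction).

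**Figure D5:**
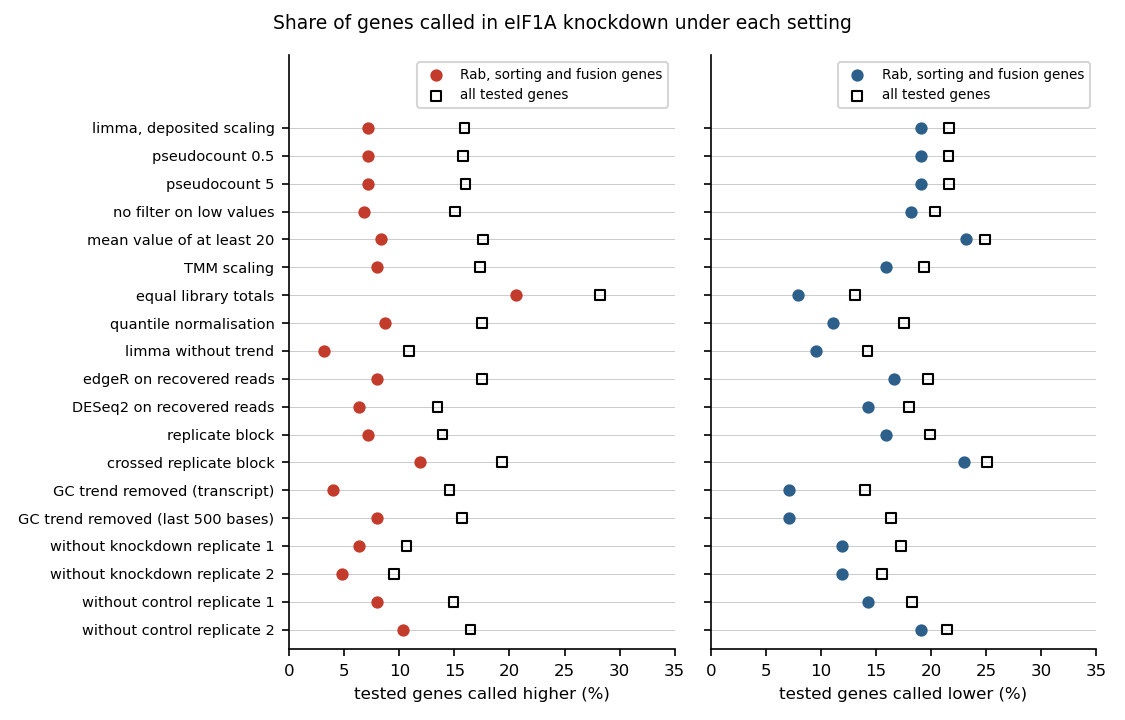
Share of tested genes called higher (left) and lower (right) in eIF1A knockdown libraries under each setting, for Rab, sorting and fusion genes (filled circles) and all tested genes (open squares). At the deposited scaling the members stand at 7.14% and 19.0% and all genes at 15.9% and 21.6%, and at equal library totals the members stand at 20.6% and 7.94%.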

How the data were processed

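The 4 libraries were bulk MARS-seq of MEFs, grouped and numbered by the sample titles. Per the labels' protocols, oligo(dT) beads captured the mRNA. STAR, HTSeq, DESeq2, cutadapt 1.8.3, bcl2fastq 2.17.1.14 and the mm10 build are listed in the submitters' processing notes. How strand and molecular identifiers were handled, and how genes were selected, is not given in any source used here. The authors deposited a signal, counts after normalisation, and in each column 100% were whole multiples of 1 step (within 0.01 read), so the reads were recovered. No gene is at 0.

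limma 3.58.1 (R 4.3.3) with a mean-variance trend was fitted on log2(value + 1) over the 4605 genes with a mean of at least 5. Alternatives included edgeR 4.0.16 and DESeq2 1.42.0 on the reads, other scalings, pseudocounts and filters, and each library left out. The scripts were tested on simulated data. Members, roles, the companion list and markers were chosen with earlier results of these data known, and the complexes drawn in the figure of subunits after the values were seen. Named were all members past the threshold, the 3 of smallest p among the others of each role, those under the filter, and 5 companion genes per direction, of which 2 are not reported here; others were chosen after their values were seen. Coordinates and GC content come from GENCODE M21 (mm10; all 132 members matched), promoters from RefSeq (108 matched).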

Additional observations from a re-analysis of the deposited data

How the results depend on the processing

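Of 594 values of the 33 called members under 18 other settings, 451 kept direction and call, 141 lost the call and 2 turned direction, both for Ehd1 with the GC trend removed (log2 0.044 and 0.14). At equal library totals, called counts were 1300 higher and 603 lower for all genes, 26 and 10 for members, and 18 and 12 for companion genes. limma without its trend called 501 genes of the table higher and 655 lower (10.9% and 14.2% of those tested). It called 4 members higher and 12 lower (3.17% and 9.52%), and 3 companion genes higher. With the GC trend of the transcript removed, an alternative chosen after seeing the data, 670 genes of the table were higher and 643 lower (14.6% and 14.0%). There 5 members were higher and 9 lower (3.97% and 7.14%), and 3 companion genes were higher and 11 lower. With the GC trend of the last 500 bases removed 10 members were higher and 9 lower (7.94% and 7.14%), against 15.7% and 16.4% of all genes. Quantile normalisation left 14 members lower (11.1%, against 17.5% of all genes). A threshold of 0.1 gave 16 of the 126 tested members higher, and 916 of all 4605 tested genes. Without each library in turn, members higher ran from 6 to 13 and members lower from 15 to 24, genes of the table higher from 438 to 758 and lower from 715 to 987, and companion genes higher from 1 to 6 and lower from 12 to 21. The lowest of these counts of higher genes came without knockdown library 2. The median of the members was 0.034 under TMM, 0.31 at equal totals, 0.0071 under quantile normalisation, 0.043 in edgeR, 0.020 in DESeq2, −0.086 at a mean of at least 20 and 0.013 with the GC trend of the last 500 bases removed, and ran from −0.10 to 0.050 without each library, so its sign varied between settings. The median of all tested genes varied too: 0.054 under TMM, 0.34 at equal totals, 0.042 under quantile normalisation, 0.052 in edgeR and 0.031 in DESeq2. Over the settings, the members' median less that of all genes ran from −0.066 (without knockdown library 2) to 0.036 (without knockdown library 1). The cause was not tested.

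Replicate numbers are shared by the groups, but deviations of same-numbered libraries correlated at −0.13, and no label says that a number marks a shared day or culture. With the replicate number as a block 9 members were higher and 20 lower (7.14% and 15.9%, against 13.9% and 19.9% of all genes). With the numbers crossed, chosen after seeing the data, 15 were higher and 29 lower (11.9% and 23%, against 19.3% and 25.1%). Counts of a few reads limit what could be seen of the 6 members under the filter.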

Other observations

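Removing the trend on GC content also brought members past the threshold that had not passed before. Snx8, a sorting nexin of early endosomes, had 527 and 417 normalised counts in knockdown libraries, against 378 and 370.1 in control libraries. Its log2 fold change was 0.33 (adjusted p = 0.264, limma) and became 0.94 (0.00537) with the transcript trend removed and 0.88 (0.00518) with that of the last 500 bases removed. Vps37b of ESCRT-I had 441 and 554 in knockdown libraries, against 454 and 493 in control libraries, and its log2 fold change of 0.064 became 0.62 (adjusted p = 0.04998) and 0.68 (0.0298). Epn2, Exoc6b and Rab31 were higher and Rab3gap1 was lower in 1 of these 2 settings. Snx6, which had 97.7 and 89.0 in knockdown libraries, against 117 and 157 in control libraries, went to −1.01 (0.0146) with the transcript trend removed. These settings were chosen after the data were seen.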
